A study of Nematostella vectensis with 15 samples.

Results

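The step from 15 to 20 °C was examined in adult female polyps of the starlet sea anemone *Nematostella vectensis*, using the 5 libraries of animals cultured at 20 °C and the 5 libraries of animals cultured at 15 °C, which make up 10 of the 15 libraries in the series. Libraries were assigned to a temperature by their labels, and every gene of the count table entered the comparison. The polyps of all groups were F1 offspring of the CH2XCH6 cross, were kept in artificial sea water at 16‰, and gave RNA from the mesenteric part of the body, from which stranded libraries of polyadenylated RNA were made. The remaining 5 libraries, from polyps cultured at 25 °C, entered the same fit and are given beside the cold step where they show the level above it. The time for which polyps had been held at a temperature, and whether each replicate was a separate polyp, are not given in the labels, so that the p-values measure the spread between libraries. Each temperature is known only as a label, and culture vessel and temperature cannot be told apart.

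Sea anemones do not regulate their body temperature, so their enzymes, membranes, and transcription work at the temperature of the water around them. The mesenteries are folds of the gut wall that carry digestive filaments, retractor muscle, and, in a female, the ovaries with their oocytes. In bulk RNA from such a mixed tissue, fewer cells of a type and less RNA per cell cannot be told apart. The deposited gene models carry JGI model names or TACO assembly names and no products, and 0 of 27527 identifiers matched the 38762 genes of the RefSeq table of assembly jaNemVect1.1. Functional groups were therefore not analyzed here, and the tissue label was not checked against cell type markers. The genes are described by their level, structure, and position on the JGI scaffolds.

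Total counts ran from 3526175 to 9619520 at 15 °C, with a median of 7727786, and from 8931333 to 17882346 at 20 °C, with a median of 14234219. Replicate 3 at 15 °C was the shallowest library, where 3 counts correspond to 0.967 counts per 1000000 of its scaled total (CPM). Over the genes tested, each of the 10 libraries correlated best with a library of its own temperature. Pearson's r of log2 CPM across genes was 0.960 to 0.981 between libraries at 15 °C, 0.970 to 0.987 between libraries at 20 °C, and 0.931 to 0.968 between temperatures. The typical variation of a gene between replicates, given as the biological coefficient of variation of edgeR's common dispersion, was 18.1% at 15 °C and 15.7% at 20 °C. After every library was thinned to the lowest total it was 18.0% and 15.1%, so that the figure at 15 °C was also the higher at equal depth.

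A broad but mostly modest set of genes differed across the cold step, in nearly equal numbers in both directions. Of 17818 genes tested, 3345 (18.8%) had an adjusted p under 0.05 in edgeR's quasi-likelihood test with Benjamini-Hochberg adjustment. The level at 20 °C was higher for 1722 genes (9.66%) and lower for 1623 genes (9.11%). The median change was 1.57-fold among the higher genes and 1.57-fold among the lower genes, and 722 and 693 of them, respectively, changed by less than 1.5-fold. The 10 libraries did not overlap between temperatures for 2315 of all genes tested (13.0%). Among the genes called, no overlap was seen for 1170 of the higher genes (67.9%) and 923 of the lower genes (56.9%). The median log2 fold change over all genes tested was 0.0018. The scaling of the libraries (TMM) centers the bulk of genes near no change, so a value near 0 follows from it. Each fold change is therefore relative to the bulk of genes, and a shift common to all genes would not be seen.

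Large changes were more often rises. At least 2-fold changes numbered 421 higher and 367 lower, at least 4-fold changes 89 and 23, and at least 8-fold changes 13 and 1. The 89 genes that rose at least 4-fold had a median level of 2.79 CPM at 15 °C, 17.7 CPM at 20 °C, and 17.4 CPM at 25 °C. The 23 genes that fell at least 4-fold had a median level of 6.55 CPM at 15 °C, 1.42 CPM at 20 °C, and 0.752 CPM at 25 °C. Above 100 CPM in the warmer group were 21 of the 89, and above 100 CPM in the colder group were 2 of the 23. Models with a single exon made up 26 of the 89 and 6 of the 23, or 29.2% and 26.1%, against 14.7% of all genes tested.

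**Figure D1:**
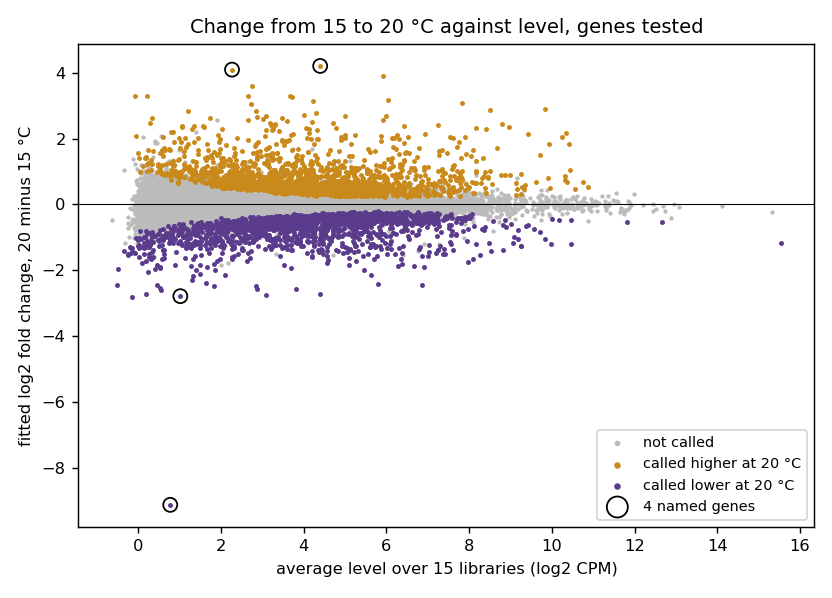
Fitted log2 fold change between 20 and 15 °C (vertical axis) against the average level over all 15 libraries in log2 CPM (horizontal axis), 1 point per gene tested. The 1722 genes called higher and 1623 called lower lie on both sides of 0 at every level, the 4 circled genes are the largest rises and falls under the naming rule, and the lowest point is a gene with no count at 20 °C, whose fitted value is not a measure of its fold change.

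For 4 genes the level in every library is given. They are the 2 that rose most and the 2 that fell most, taken from the called genes whose 5 libraries at 20 °C all lay on the same side of the 5 at 15 °C and whose log2 CPM averaged 0 or more. The files give no product for any of them. Levels per length are given as RPKM, the CPM divided by the summed exon length in kilobases.

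The largest rise was that of NEMVEDRAFT_v1g245520.EDO36422, a model with 2 exons on the + strand of scaffold 164 (311687 to 314467). Its summed exons cover 2049 bases, of which 1827 are coding and 222 are 5′ UTR. In replicates 1 to 5 at 15 °C its level was 1.98, 0.661, 0.322, 2.38, and 1.42 CPM. In replicates 1 to 5 at 20 °C it was 35.0, 31.0, 14.8, 31.7, and 24.1 CPM. The lowest library at 20 °C was thus well above the highest at 15 °C. The mean was 1.35 ± 0.867 CPM (SD, n = 5) at 15 °C and 27.3 ± 8.05 CPM at 20 °C, and the log2 fold change was 4.21 ± 0.29 (SE, edgeR adjusted p = 3.32e-08). Per length this was 0.661 ± 0.423 RPKM and 13.3 ± 3.93 RPKM. At 25 °C the mean was 32.1 ± 2.62 CPM, with a log2 fold change of 0.22 from 20 °C (edgeR adjusted p = 0.615). Its 3′ end overlaps by 952 bases a model with 9 exons on the opposite strand, whose own log2 fold change across the cold step was -0.04 (edgeR adjusted p = 0.844). The libraries were stranded, but the study's methods describe counting with the default settings of featureCounts, which do not use strand. Where the deposited counts were made so, reads from the overlap cannot be told apart by gene and may be left out of both.

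NEMVEDRAFT_v1g98785.EDO43145 showed the second largest rise. It is a model with 1 exon of 492 coding bases on the − strand of scaffold 51 (189107 to 189598), with no annotated UTR. Only 1 to 5 reads were counted in each library at 15 °C, giving 0.124, 0.441, 0.967, 0.596, and 0.129 CPM in replicates 1 to 5. In the corresponding order, the libraries at 20 °C had 8.57, 5.98, 4.72, 7.77, and 6.52 CPM. The groups were far apart, although the values at 15 °C rest on 14 reads in all. The log2 fold change was 4.10 ± 0.33 (SE, n = 5, edgeR adjusted p = 4.42e-08). Per length, the level went from 0.917 ± 0.717 RPKM to 13.6 ± 3.07 RPKM (SD, n = 5). At 25 °C the mean was 5.76 ± 1.16 CPM, and the log2 fold change from 20 °C was -0.26 (edgeR adjusted p = 0.541). Its nearest tested neighbor on the right, a model with 47 exons 10503 bases away on the + strand, moved in the opposite direction, with a log2 fold change of -0.47 (edgeR adjusted p = 0.00177).

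The largest fall was that of NEMVEDRAFT_v1g144189.EDO29545, a model with 1 exon of 168 coding bases on the − strand of scaffold 956 (29171 to 29338), which holds 3 models in all. At 15 °C, replicates 1 to 5 had 79, 104, 12, 10, and 25 reads, or 9.80, 11.5, 3.87, 1.19, and 3.22 CPM. No read was counted in any of the 5 libraries at 20 °C or the 5 at 25 °C. The mean at 15 °C was 5.91 ± 4.46 CPM (SD, n = 5), or 35.2 ± 26.5 RPKM. Against a floor of 3 counts over the group at 20 °C, or 0.0435 CPM, the level at 20 °C was at least 136-fold lower than at 15 °C (edgeR adjusted p = 0.0083). The floor covers counting error only. It was the only gene counted in all 5 libraries at 15 °C and in none at 20 °C, whereas 17 genes had the opposite pattern. After thinning to the lowest total, the numbers were 7 and 6, respectively, so that the excess of 17 over 1 was not seen at equal depth.

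NEMVEDRAFT_v1g53249.EDO30117 showed the second largest fall. Its model has 3 exons with 504 coding bases on the + strand of scaffold 636 (40270 to 42128). At 15 °C its level was 5.21, 2.42, 9.03, 8.34, and 4.12 CPM in replicates 1 to 5. At 20 °C it was 0.877, 0.544, 1.26, 0.481, and 0.861 CPM. The lowest library at 15 °C remained above the highest at 20 °C. The log2 fold change was -2.79 ± 0.38 (SE, n = 5, edgeR adjusted p = 3.69e-05), and the means per length were 11.6 ± 5.56 RPKM and 1.60 ± 0.617 RPKM (SD). At 25 °C the mean was 0.504 ± 0.293 CPM, with no read in replicate 2.

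**Figure D2:**
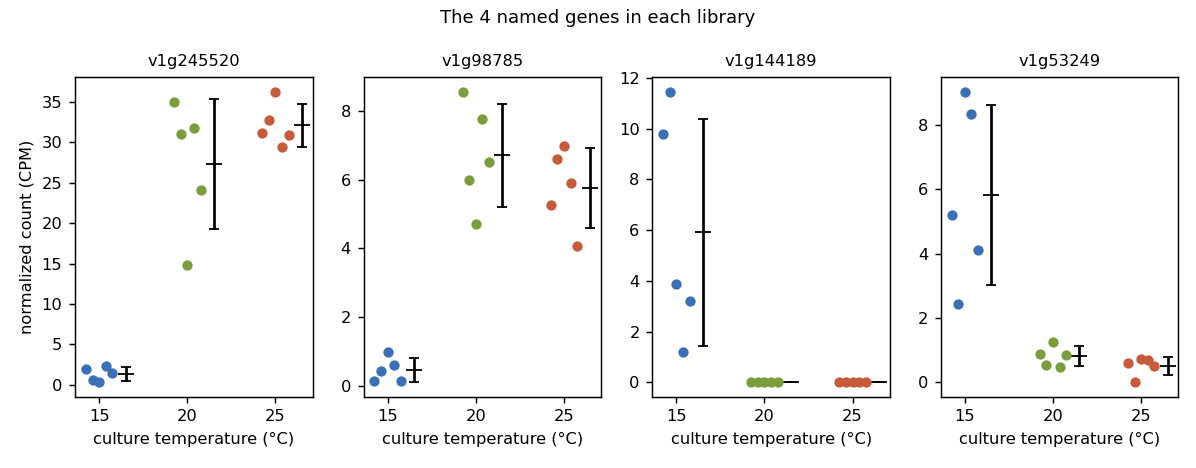
Normalized count in CPM (vertical axes, each with its own scale) of the 4 named genes in the 5 libraries at each culture temperature (horizontal axes), with the mean and SD beside the points. In every panel the libraries at 15 °C are separate from those at 20 °C, and those at 25 °C lie close to 20 °C.

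The gene with the highest average level over all libraries also fell across the cold step. It was chosen after its values were seen and is a model with 25 exons on the − strand of scaffold 57 (739636 to 754598). It took 7.56%, 8.44%, 8.96%, 6.75%, and 7.45% of all counts in replicates 1 to 5 at 15 °C. It took 3.65%, 2.24%, 3.96%, 2.80%, and 5.45% in replicates 1 to 5 at 20 °C. The groups did not overlap, and the level was 2.27-fold lower at 20 °C (log2 fold change -1.18 ± 0.23 SE, edgeR adjusted p = 0.00105). At 25 °C its share was 1.93% to 3.40%. It led at 15 °C, whereas a model on scaffold 383 held a similar mean share at 20 °C (3.56% against 3.62%) and a higher one at 25 °C (4.68% against 2.58%). Of the 20 most abundant models, 3 were called lower and 0 higher (background 18.8% called in either direction).

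The genes that changed held an unequal part of the RNA pool. The genes called higher took 5.21% to 6.25% of the counts of a library at 15 °C and 10.3% to 11.6% at 20 °C, and the genes called lower took 16.5% to 19.6% and 8.97% to 12.4%. Without the leading model on scaffold 57, the lower genes still took 10.4% to 11.9% at 15 °C and 6.80% to 7.36% at 20 °C. These shares describe genes chosen by this contrast and are no test of it. The 10 most abundant models of each library held 18.8% ± 1.19 (SD, n = 5) of counts at 15 °C and 13.9% ± 1.54 at 20 °C. The mean share of the model on scaffold 57 fell by 4.21 percentage points, so this measure, which was chosen after that fall was seen, mostly restates it, and no test is given for it.

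At 25 °C the genes called across the cold step lay, in the median, close to their levels at 20 °C. Among genes called higher, the median log2 fold change was 0.65 from 15 to 20 °C, 0.62 from 15 to 25 °C, and -0.05 from 20 to 25 °C. Among genes called lower, the values were -0.65, -0.71, and -0.04. The contrasts share libraries, and the genes were chosen by their difference between 15 and 20 °C, so these medians are a description. The share of counts in the genes called higher was 9.56% to 10.97% at 25 °C, near the 10.3% to 11.6% at 20 °C. The share in the genes called lower had a mean of 10.4% at 20 °C and 8.99% at 25 °C, with overlapping ranges.

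Libraries at 15 °C differed in how far they stood from 20 °C. Each library was left out in turn, genes were called without it, and the share of those genes was counted for which the library lay nearer the mean of its own temperature than that of the other. This share was 81.0% to 90.2% for 8 of the 10 libraries, where all genes tested gave 61.4% to 67.8%. It was 69.5% for replicate 2 at 15 °C and 59.6% for replicate 4 at 15 °C. For these, all genes tested gave 55.1% and 51.7%, respectively. When replicate 4 at 15 °C was left out, 3712 genes were called. Without that library the 4 named genes stayed called in the same direction, and the longest quartile of gene span gave 439 higher and 736 lower genes in place of 406 and 613.

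**Figure D3:**
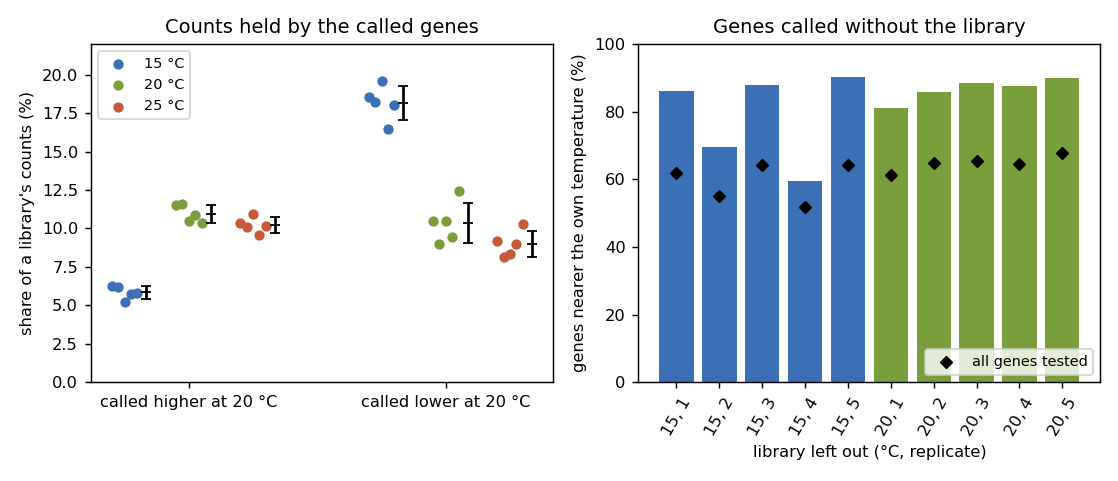
Left, share of a library's counts (%) held by genes called higher or lower at 20 °C, 1 point per library with the mean and SD beside it. Right, share of genes (%) called without a library for which that library lay nearer its own temperature (bars), and the same share over all genes tested (diamonds), with replicate 4 at 15 °C lowest at 59.6%.

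The balance of higher and lower calls differed with gene structure over all genes tested, although every class held many of both. Among models with 1 exon, 293 of 2628 were higher and 176 lower, whereas among models with over 10 exons 310 of 4023 were higher and 563 lower. By the genomic span of the model, the shortest quartile (up to 1914 bases) had 462 higher and 266 lower of 4455, and the longest quartile (above 9245 bases) had 406 higher and 613 lower of 4454. In percentages, 10.4% and 5.97% of the shortest quartile and 9.12% and 13.8% of the longest were higher and lower, against 9.66% and 9.11% of all genes tested. The median log2 fold change was 0.04 in the shortest quartile and -0.04 in the longest. The counts for short models fell with depth and filtering, and so did most of those for long models. The shortest quartile had 288 higher and 214 lower when 10 counts were required in every library, 265 and 174 with the L2 columns of each library alone, and 305 and 183 after thinning. Models with 1 exon had 178 higher and 142 lower, 171 and 119, and 199 and 116 in the same settings. The longest quartile had 424 higher and 559 lower, 250 and 471, and 299 and 453. Calls over all genes fell from 3345 to 2937, 2210, and 2343. Long models were also more abundant, with a median average log2 CPM of 4.843 in the longest quartile and 2.105 in the shortest, and the share called rose with abundance from 11.5% in the lowest quartile to 24.4% in the highest. Among the most abundant quartile alone, 65 of 400 short models were higher and 59 lower, while 235 of 2071 long models were higher and 289 lower. Lower calls thus made up 14.8% of the short and 14.0% of the long models at that level, so that the excess of lower calls in long over short models was not seen among abundant genes. Higher calls made up 16.25% of the short and 11.3% of the long models there. In that quartile of abundance as a whole, 13.1% of genes were higher and 11.4% lower. Short models there thus leaned no further to higher calls than abundant genes as a whole, whereas long models leaned weakly to lower calls.

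Across whole libraries, the models in the longest quartile held 39.7% ± 2.84 (SD, n = 5) of counts at 15 °C and 36.5% ± 0.938 at 20 °C, which did not pass the two-sided exact permutation test (p = 0.0714, adjusted p = 0.143 over 6 measures of the pool). Replicate 4 at 15 °C decided this result. It had 35.2%, below every library at 20 °C. The other 4 libraries at 15 °C had 38.6% to 42.1% and lay above every library at 20 °C. Without replicate 4 the groups are therefore fully apart, and the exact permutation p of 0.0159 (adjusted p = 0.0317) is the smallest possible. As that library was picked by its value, this p is no test. The shortest quartile held 8.97% ± 0.316 and 9.50% ± 0.291 (exact permutation p = 0.0159, adjusted p = 0.0476). With single libraries left out, the adjusted p was 0.0317 to 0.0952, over 0.05 for 8 of 10. In those 8 settings the exact permutation p before adjustment was 0.0317. Leaving out a library raises the smallest possible exact permutation p from 0.00794 to 0.0159, so these settings are a coarser test. These measures were chosen after seeing the data. The 6 include the share of the 10 most abundant models, for which no test is given. Its lower p brings the adjusted p of the shortest quartile under 0.05, and without that measure in the adjustment it would not pass. With an offset for exon length in each library, the shortest quartile gave 403 higher and 316 lower, and the longest 435 and 623, so that both excesses over all genes kept their direction. The number of genes with a count after thinning was 20757 ± 358 and 20746 ± 172 (exact permutation p = 0.952). Whether library quality had a part in these patterns was not tested.

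By source, JGI models gave 1230 higher and 959 lower of 11852, and models assembled with TACO gave 492 higher and 664 lower of 5966. Most of the excess of lower calls among TACO models was in those that match exons of a JGI model. Of these 3828, 315 (8.23%) were higher and 486 (12.7%) lower, against 9.66% and 9.11% of all genes tested. The 212 TACO models over the opposite strand of a JGI model had 19 higher and 26 lower. The 1886 TACO models with no reference match had 152 higher and 150 lower. Their median average log2 CPM was 2.48, against 4.55 for those with an exon match. Reads that fall in more than 1 model may be split or left out by the counting, so these counts are uncertain.

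**Figure D4:**
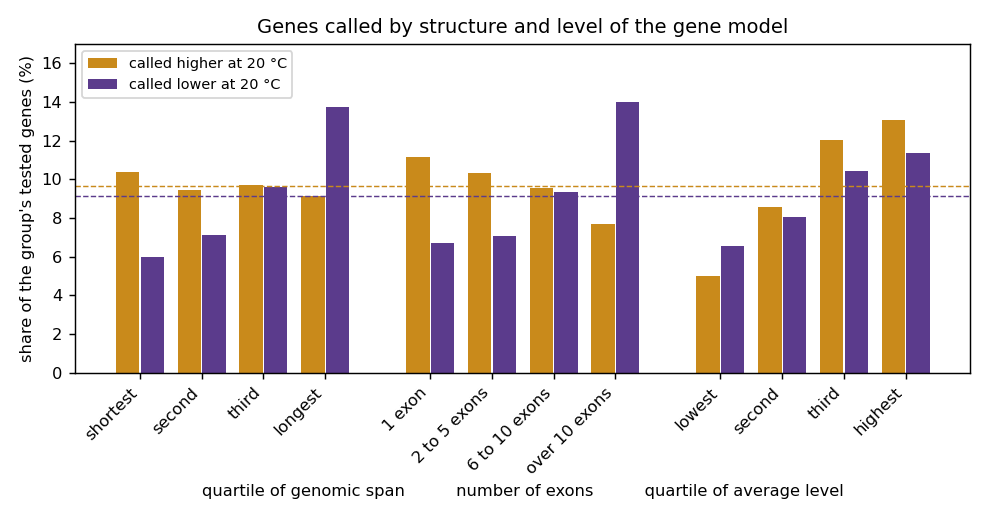
Percentage of tested genes called higher and lower at 20 °C (bars) in quartiles of genomic span, by number of exons, and in quartiles of average level; dashed lines mark 9.66% and 9.11% of all genes tested. Over all genes tested, lower calls rise with span and exon number, and both directions rise with level.

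Adjacent genes that both changed mostly moved the same way where they lay on the same strand. Of 12142 pairs of adjacent tested models, 611 (5.03%) had both members called, where 18.8% of single genes called would give 3.52% if neighbors were independent. Of these pairs, 455 (74.5%) moved the same way. As 51.5% of all called genes were higher, neighbors with independent directions would agree about as often as not. The share depended on orientation. It was 83.1% for 373 pairs on the same strand, 68.8% for 128 divergent pairs, and 51.8% for 110 convergent pairs. Both members were called in 6.65%, 3.77%, and 3.51% of the tested pairs of these orientations, respectively. Among pairs of models that did not overlap, 280 of 339 on the same strand moved the same way (82.6%). Whether adjacent models on 1 strand are parts of a single transcript was not tested.

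Runs of at least 4 consecutive tested models called in the same direction numbered 25 and held 134 models, 4.01% of those called, with 16 runs higher and 9 lower. The runs were picked for their calls, so their values are a description. The longest held 12 models, all higher, on scaffold 297 (183228 to 265847). Its 10 models on the − strand had log2 fold changes of 1.58 to 3.30 and no overlap between temperatures. The other 2, on the + strand, had 0.45 and 0.83, with overlapping libraries. Summed over the run, the level was 253, 294, 245, 246, and 261 CPM in replicates 1 to 5 at 15 °C. At 20 °C it was 990, 1429, 839, 968, and 973 CPM, and at 25 °C it ranged from 688 to 1219 CPM. Most of this sum came from a model with 2 exons at the right end, whose mean was 141 CPM at 15 °C and 729 CPM at 20 °C.

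A second run held 10 models on the − strand of scaffold 363 (37193 to 211506), with log2 fold changes of 0.51 to 1.30. Its summed level was 181 to 306 CPM at 15 °C and 356 to 532 CPM at 20 °C, with no overlap. A run of 8 higher models on the + strand of scaffold 254 (162435 to 251284) had log2 fold changes of 0.46 to 0.88. Its summed levels overlapped, with 160 to 258 CPM at 15 °C and 233 to 352 CPM at 20 °C, only 3 of its 8 models were free of overlap, and 3 stayed called with the L2 columns alone. A further run of 8 higher models on the + strand of scaffold 402 (53234 to 187171) had log2 fold changes of 0.61 to 1.03. All 8 were free of overlap, and the summed level was 93.5 to 135 CPM at 15 °C and 206 to 251 CPM at 20 °C.

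The longest run of lower genes had 9 models on the + strand of scaffold 86 (315367 to 401035), with log2 fold changes between -0.91 and -0.67. Of its neighboring models, 5 pairs overlap. The summed level was 260, 314, 250, 150, and 314 CPM at 15 °C and 122, 154, 195, 150, and 158 CPM at 20 °C. Replicate 4 at 15 °C lay within the range of 20 °C, and none of the 9 models was free of overlap between temperatures. All 9 stayed called without that library, but leaving out replicate 5 at 15 °C left 3 called, and leaving out replicate 2 at 15 °C or replicate 1 at 20 °C left 4.

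**Figure D5:**
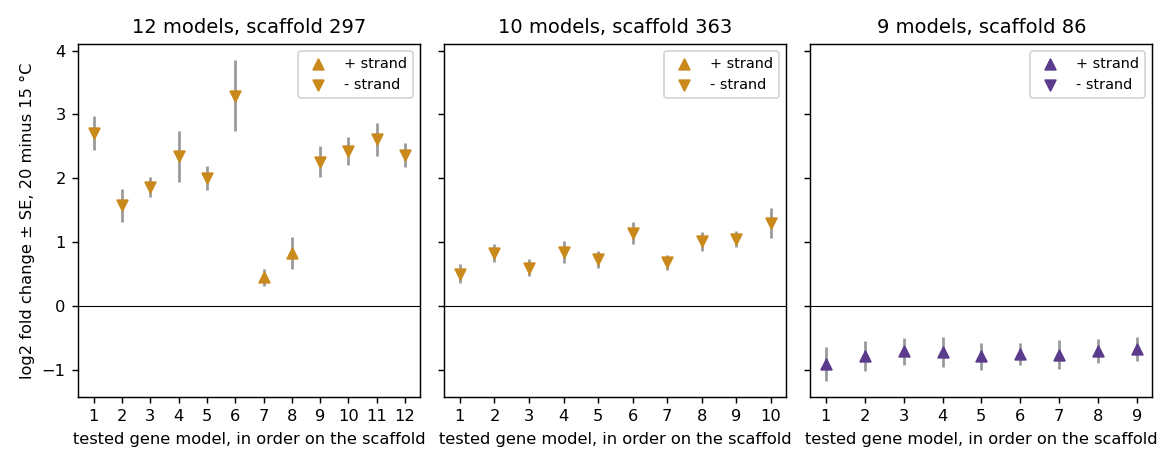
Log2 fold change between 20 and 15 °C with its SE (vertical axis) for consecutive tested gene models in their order on the scaffold (horizontal axis) in the 3 longest runs; triangles point up for the + strand and down for the − strand. On scaffold 297 the 10 models on the − strand rise by 1.58 to 3.30 and the 2 on the + strand by 0.45 and 0.83, and on scaffold 86 the 9 values lie between -0.91 and -0.67.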

How the data were processed

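RNA-seq was available for 15 libraries, 5 at each of 15, 20, and 25 °C. The authors deposited raw read counts per gene, in 2 columns per library marked L1 and L2, whose meaning is not stated, together with the gene models and their lengths. The submitters' processing notes name Trimmomatic 0.38, HISAT2 2.1.0, StringTie 2.0, and featureCounts; the study's methods describe trimming, alignment, and then counting with default settings, which ignore strand. Whether these steps made the deposited table is not stated. The 2 columns of a library were summed.

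Counts were tested with edgeR 4.0.16 in R 4.3.3 (TMM scaling, filterByExpr, robust glmQLFit, glmQLFTest, temperature as the only term) over all 15 libraries, with Benjamini-Hochberg adjustment over the 17818 genes kept; 9709 of 27527 were left out as low. CPM use the TMM-scaled total. Means are given with SD. The scripts were tested on simulated data. Single measures of a library were compared by exact permutation (scipy 1.17.1), and those measures were chosen after seeing the data. Named genes were the 2 that rose most and the 2 that fell most among called genes averaging 0 log2 CPM or more whose libraries were separate between temperatures; rules on product names could not be applied, because no identifier matched. Alternatives were DESeq2 1.42.0, limma-voom (limma 3.58.1), other scalings and filters, the 10 libraries of the cold step alone, each column set alone, thinned depth, and single libraries left out. The comparison, lists, and rules were chosen with earlier results of these data known. No sequence is shown, as none of these genes was matched to a sequence.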

Additional observations from a re-analysis of the deposited data

Results flagged for a closer look

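In the run of 12 higher models on scaffold 297, replicate 2 at 20 °C had a summed level of 1429 CPM, apart from the other libraries at 20 °C, which had 839 to 990 CPM. The next highest library was 0.745 of the group's range away, above Dixon's critical value of 0.71 for 5 libraries. Of 25 groups of 5 libraries examined this was the single one, where chance gives 1.25.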

How the results depend on the processing

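The count of 3345 genes called, with 1722 higher and 1623 lower, stayed within 1.5 times of its value under DESeq2 (3558), limma-voom (3252), other scalings, other filters, and thinning (2343). It left that range with the L2 columns alone (2210 called, 1047 higher) and when a change of at least 2-fold was also required (788 called, 421 higher and 367 lower). Leaving out 1 library gave 2734 to 3712 genes called, 1434 to 1939 higher and 1300 to 1773 lower, and 78.8% to 88.6% of the genes stayed called with the same sign. No gene was called in the opposite direction in any of these settings. Whether the replicate numbers pair the libraries could not be decided from 5 pairs. The correlation of deviations between libraries of the same number at 15 and 20 °C was -0.0479 to 0.286, over 0.1 for 2 of 5. Its mean was 0.0967, against -0.0240 for libraries of different number, and 3 of 10 libraries correlated best with their own number. With the replicate block, 3547 genes were called (1853 higher, 1694 lower), and with the block and an exon length offset, 3569. The offset alone gave 3424. Both settings with the offset were added after seeing the data. With the 10 libraries of the cold step alone, 2805 genes were called (1440 higher, 1365 lower), and 82.1% of the main calls were shared. All 4 named genes kept their call wherever they were tested, and the highest adjusted p was 0.0263, for NEMVEDRAFT_v1g144189.EDO29545, which 19 alternatives tested. That gene was not tested with the 10 libraries alone, with either column set alone, or after thinning, where the other named genes were. Depth limits low genes most: at 15 °C, 3 counts in replicate 3 amount to 0.967 CPM.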
